A study of Homo sapiens with 24 samples.

Results

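Transcripts of 8 Notch pathway genes were followed in 4 human cancer cell lines: the DNA-binding factor RBPJ, the receptors NOTCH1, NOTCH2 and NOTCH3, the ligands JAG1 and JAG2, and the target genes HES1 and HEY1. They were taken by exact gene symbol, and all 8 were found among the 23106 gene symbols counted in each library. The lines were A549 from a lung cancer, HCT116 from a colorectal cancer, PC3 from a prostate cancer and T47D from a breast cancer, all established and unmodified. Each line gave 3 polyadenylated RNA libraries from cells kept at 21% oxygen (normoxia) and 3 from cells kept at 0.5% oxygen for 16 h (hypoxia), 24 libraries in all. All cells grew in medium with fetal bovine serum, namely F12K for A549 and PC3, McCoy's 5a for HCT116 and DMEM for T47D, so that cell line and medium cannot be told apart except between A549 and PC3. The labels do not say whether same-group replicates came from separate cultures, and p-values then measure only the spread between these libraries.

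Notch signaling passes between touching cells. A Jagged or Delta-like ligand on one cell binds a NOTCH receptor on its neighbor, ADAM10 and then the gamma-secretase complex cut the receptor, and the freed intracellular domain enters the nucleus, where it joins RBPJ on DNA and recruits Mastermind coactivators and histone acetyltransferases. Without that domain RBPJ is bound by corepressors, and HES1 and HEY1, which encode basic helix-loop-helix repressors, are among the best known genes that it controls. In epithelia the pathway is known for setting cell fate, as between absorptive and secretory cells of the intestine. Hypoxia-inducible factors (HIFs) are the transcription factors that most directly answer a fall in oxygen, and they bind DNA at a short core motif. Transcript counts measure neither receptor cleavage nor protein.

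In outline, RBPJ was higher in every hypoxic library than in any normoxic library of the same line. It was upregulated in A549, HCT116 and PC3 cells, and by DESeq2 also in T47D cells. NOTCH3 and JAG2 passed the thresholds for upregulation in all 4 lines. The target genes did not follow one pattern, since HES1 was upregulated in HCT116 cells and HEY1 in A549, PC3 and T47D cells. JAG1 fell in A549 cells and rose in HCT116 and T47D cells. With the trends of counts over transcript GC content and length taken out of each library, RBPJ was upregulated in all 4 lines, NOTCH1 in none, NOTCH3 in PC3 cells and JAG2 in T47D cells, and the replicate number as a block added NOTCH3 in HCT116 cells.

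Library totals ranged from 22698584 to 62850747 counts, and the oxygen labels were checked with 2 genes that hypoxia is known to induce. CA9, a carbonic anhydrase, and VEGFA, an angiogenic growth factor, did not overlap between oxygen states in any line. All 4 general epithelial markers (EPCAM, KRT8, KRT18 and CDH1) were detected in each line at a level of at least 1 CPM (counts scaled to library size). The 4 breast luminal markers were present in T47D cells, whereas the 4 lung markers were all below 1 CPM in A549 cells, HCT116 cells kept CDX2 alone of the 4 colorectal markers, and PC3 cells lacked KLK3 at this level. In bulk RNA, fewer cells with a transcript and less transcript per cell cannot be told apart. Hypoxic replicate 3 of T47D cells stood apart from the other 2 hypoxic libraries of that line, with the lowest RBPJ, NOTCH1, NOTCH2, NOTCH3, JAG1, JAG2 and HEY1 levels of the 3 and the highest HES1 level, and results in T47D cells are given with and without it where it matters.

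In GRCh37, to which the reads were aligned, RBPJ lies on the plus strand at chr4:26165077-26436753 and HES1 on the plus strand at chr3:193853937-193856521. NOTCH1 (chr9:139388885-139440500), NOTCH2 (chr1:120454176-120643366), NOTCH3 (chr19:15269849-15311806), JAG1 (chr20:10618332-10654647) and JAG2 (chr14:105607319-105635161) lie on the minus strand. Counts cover the exons of these genes, untranslated parts included. The authors removed fragments without a unique position, and RBPJ has 4 named pseudogenes in the RefSeq gene table while NOTCH2 has the near-identical NOTCH2NL, so the levels of RBPJ and NOTCH2 against other genes are uncertain. A long noncoding RNA on the opposite strand shares 3.29% of the exon bases of JAG1, and one on the same strand shares 7.33% of those of JAG2; the strand setting of the counting is not given in the sources used here, so these 2 genes carry that uncertainty.

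Promoter sequence is shown for RBPJ and JAG1, whose windows held the most matches to the core HIF motif among the 7 members searched. It is also shown for HES1, whose window held the core RBPJ motif. The windows are RefSeq promoters in GRCh38.p14, from 250 bases before to 50 bases after an annotated start. Those of 7 of the 8 genes were searched, and HEY1 was left out. The core HIF motif was searched as ACGTG and GCGTG and the core RBPJ motif as TGGGAA, on both strands, and no match of one overlapped a match of the other. In the HES1 window (chr3:194135898-194136197, plus strand) capitals mark the RBPJ motif, which stands 2 times, 84 and 70 bases before the start. In the next 3 windows capitals mark the HIF motif, which stands 3 times in each of 2 of the 5 RBPJ windows (window 2, chr4:26319496-26319795, and window 4, chr4:26320978-26321277, both on the plus strand) and 5 times in the JAG1 window (chr20:10673950-10674249, minus strand).
HES1: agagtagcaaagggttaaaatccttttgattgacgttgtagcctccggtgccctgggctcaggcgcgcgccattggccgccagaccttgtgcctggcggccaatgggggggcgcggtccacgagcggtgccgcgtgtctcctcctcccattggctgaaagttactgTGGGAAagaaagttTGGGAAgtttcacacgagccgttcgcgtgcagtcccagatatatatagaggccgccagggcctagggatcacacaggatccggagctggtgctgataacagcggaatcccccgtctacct
RBPJ, window 2: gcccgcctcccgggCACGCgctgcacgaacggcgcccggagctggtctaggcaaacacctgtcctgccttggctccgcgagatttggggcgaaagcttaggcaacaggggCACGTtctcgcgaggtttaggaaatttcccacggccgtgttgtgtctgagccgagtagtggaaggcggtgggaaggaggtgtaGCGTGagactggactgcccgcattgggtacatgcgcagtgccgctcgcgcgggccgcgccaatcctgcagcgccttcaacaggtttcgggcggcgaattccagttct
RBPJ, window 4: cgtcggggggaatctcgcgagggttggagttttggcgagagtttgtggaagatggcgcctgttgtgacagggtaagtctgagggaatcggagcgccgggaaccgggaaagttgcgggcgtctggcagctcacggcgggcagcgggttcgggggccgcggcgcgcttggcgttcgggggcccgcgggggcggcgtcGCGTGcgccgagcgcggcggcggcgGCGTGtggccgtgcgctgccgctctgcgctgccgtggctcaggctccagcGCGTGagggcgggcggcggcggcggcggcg
JAG1: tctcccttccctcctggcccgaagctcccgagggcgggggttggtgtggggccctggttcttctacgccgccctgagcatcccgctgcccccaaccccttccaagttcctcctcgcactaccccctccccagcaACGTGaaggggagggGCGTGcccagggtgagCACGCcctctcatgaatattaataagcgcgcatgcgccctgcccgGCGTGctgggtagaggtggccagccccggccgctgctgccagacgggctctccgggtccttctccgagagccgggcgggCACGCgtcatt
RBPJ window 2 also held the RBPJ motif, 115 bases before the start on the minus strand and 72 bases before it on the plus strand. The HIF motif also stood 2 times in the HES1 window, 2 times in that of NOTCH1 and once each in those of JAG2 and NOTCH3. Of all 35116 RefSeq windows of this length, 48.45% held the HIF motif and 24.03% the RBPJ motif. These matches describe letters and do not show binding.

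RBPJ is the factor through which all receptors of the pathway act. It belongs to the gene list that the study drew up in part from calls on these libraries. Its rise here is therefore not independent evidence of direction. The study made that list from genes upregulated in hypoxia and close to a measured HIF binding site in every line used, T47D included. In A549 cells, RBPJ was at 47.2, 44.9 and 51.8 CPM in the 3 normoxic libraries and at 71.2, 71.7 and 84.8 CPM in the 3 hypoxic ones. HCT116 cells had 88.1, 96.8 and 112 CPM in normoxia and 169, 233 and 199 CPM in hypoxia. The groups stood far apart in both lines, with a log2 fold change of 0.66 (SE 0.11, n = 3 per group, edgeR adjusted p = 0.00123) in A549 and 0.90 (SE 0.20, edgeR adjusted p = 0.00213) in HCT116 cells. PC3 cells had 97.1, 97.3 and 88.3 CPM in normoxia against 125, 113 and 119 CPM in hypoxia, the smallest of the 4 changes (0.29, SE 0.087, edgeR adjusted p = 0.0307). T47D cells went from 55.5, 44.3 and 61.5 CPM to 94.0, 96.9 and 73.2 CPM, with no overlap between the groups. The T47D change of 0.63 (SE 0.20) narrowly missed the threshold (edgeR adjusted p = 0.0546). It passed with the replicate number as a block (adjusted p = 0.0451) or without hypoxic replicate 3 (0.75, adjusted p = 0.0157) or normoxic replicate 3 (0.71, adjusted p = 0.0479). It also passed by DESeq2 (0.64, adjusted p = 0.0270) and in one fit of all libraries (0.71, edgeR adjusted p = 0.00164). It did not pass with RLE size factors (edgeR adjusted p = 0.0538) or with scaling to total counts (edgeR adjusted p = 0.0966). Nor did it pass without any 1 of hypoxic or normoxic replicates 1 and 2 (edgeR adjusted p = 0.180 to 0.192). In PC3 cells the call was lost without any 1 of hypoxic replicates 1, 2 and 3 or of normoxic replicates 1 and 3, with log2 fold changes of 0.25 to 0.32. Scaling to total counts (0.25, edgeR adjusted p = 0.0607) and one fit of all libraries (0.34, edgeR adjusted p = 0.166) lost that PC3 call as well. RBPJL, the paralog expressed in few tissues, had a mean of 0.0147 CPM in hypoxic HCT116 cells and no count in the other groups.

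**Figure D1:**
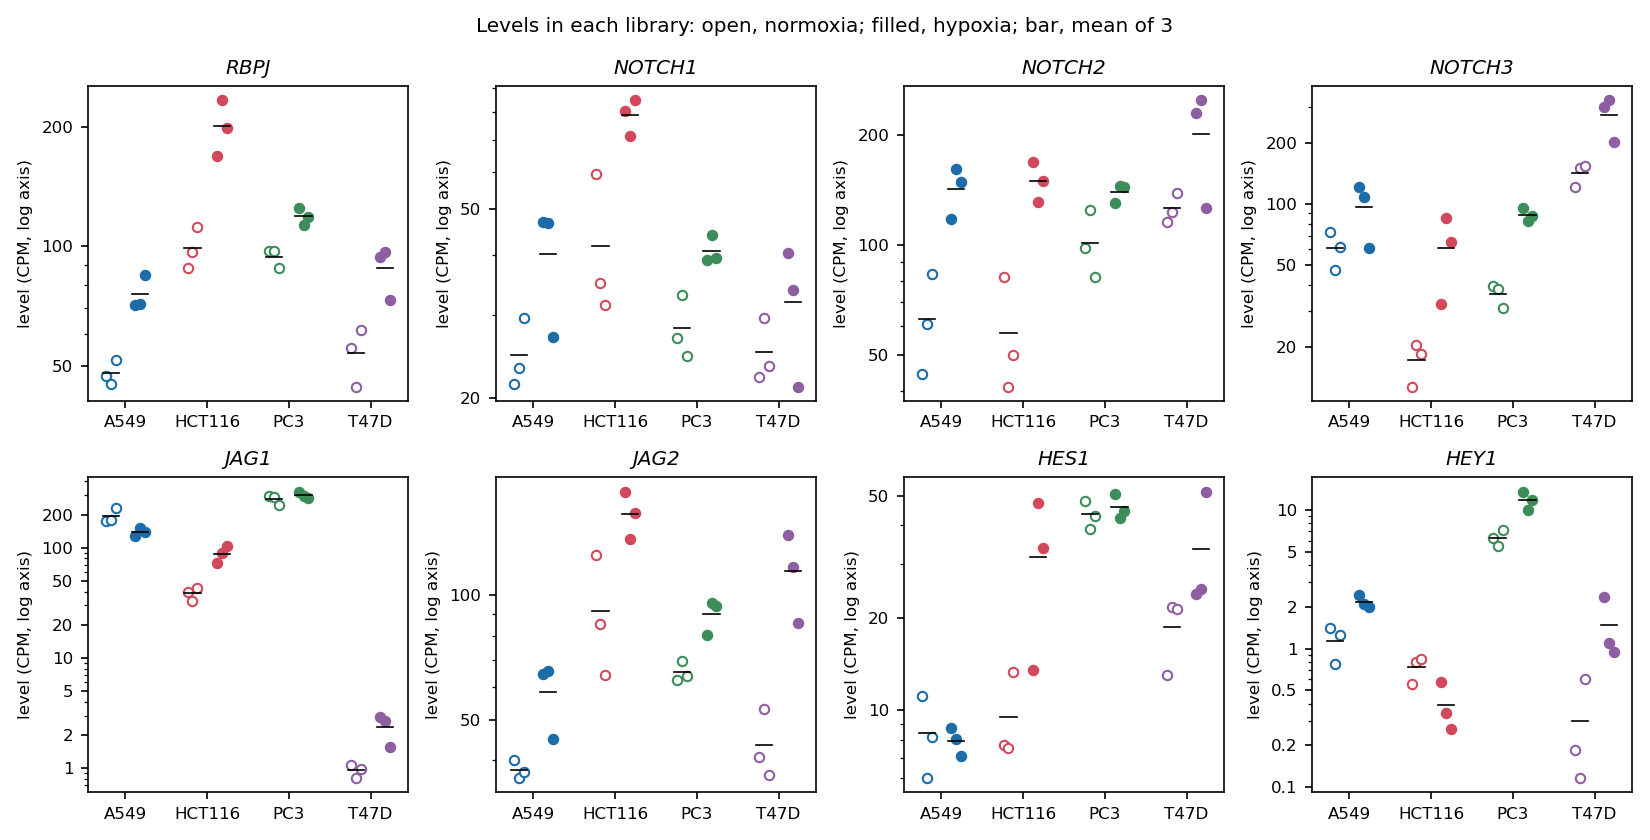
Level of each of the 8 genes in every library, in CPM on a log axis, by cell line; open circles are normoxic libraries, filled circles hypoxic libraries, and bars the mean of 3. Hypoxic RBPJ lies above normoxic RBPJ in every line, JAG1 in T47D cells is near 1 CPM, and HEY1 is lower in hypoxia in HCT116 cells alone.

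Among the receptors, which are cut to release the intracellular domain, NOTCH3 had the largest log2 fold change in HCT116, PC3 and T47D cells and NOTCH2 in A549 cells. NOTCH3 was at 39.5, 38.3 and 30.9 CPM in normoxic and at 95.7, 82.3 and 87.5 CPM in hypoxic PC3 cells, a log2 fold change of 1.24 (SE 0.11, edgeR adjusted p = 0.000219). HCT116 cells had the lowest normoxic level of NOTCH3 (12.7, 20.3 and 18.3 CPM) and reached 32.2, 85.5 and 65.2 CPM in hypoxia. Their rise of 1.71 (SE 0.30, edgeR adjusted p = 0.000586) was the largest NOTCH3 change, and hypoxic replicate 1 was well below the other 2 while still above every normoxic library. In T47D cells, where NOTCH3 was highest, the libraries went from 121, 151 and 154 CPM to 300, 323 and 201 CPM (0.87, SE 0.23, edgeR adjusted p = 0.0270). A549 cells had 72.6, 47.7 and 61.7 CPM in normoxia and 121, 108 and 61.1 CPM in hypoxia (0.67, SE 0.22, edgeR adjusted p = 0.0339), and hypoxic replicate 3 lay among the normoxic libraries. The A549 call was lost without any 1 of hypoxic replicates 1 and 2 and normoxic replicates 2 and 3, and the T47D call without any 1 of hypoxic or normoxic replicates 1 and 2 (adjusted p = 0.0715 to 0.173 over these 8 fits).

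NOTCH2, the receptor with the longest transcript of the 3, rose most in the 2 lines where it was lowest. HCT116 cells had 82.0, 41.1 and 49.99 CPM in normoxia and 169, 131 and 150 CPM in hypoxia (1.25, SE 0.26, edgeR adjusted p = 0.00154). In A549 cells, NOTCH2 went from 44.4, 61.0 and 83.5 CPM to 118, 161 and 149 CPM (1.17, SE 0.20, edgeR adjusted p = 0.00105). The groups did not overlap in either line, nor in PC3 cells, in which 98.2, 125 and 81.8 CPM became 130, 145 and 144 CPM (0.41, SE 0.13, edgeR adjusted p = 0.0347). That PC3 call was lost in 4 of 6 fits that left out 1 library (all but those without normoxic replicate 2 or 3). T47D cells had 116, 123 and 138 CPM in normoxia and 229, 248 and 126 CPM in hypoxia, so that hypoxic replicate 3 alone lay within the normoxic range. Their change of 0.59 (SE 0.25) did not pass (edgeR adjusted p = 0.126), and without that library it was 0.84 (adjusted p = 0.00853).

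Of the 3 detected receptors, NOTCH1 had the lowest level in A549, PC3 and T47D cells and passed the thresholds in 3 lines. PC3 cells had 26.8, 33.0 and 24.5 CPM in normoxia and 39.2, 44.2 and 39.4 CPM in hypoxia (0.49, SE 0.11, edgeR adjusted p = 0.0112). HCT116 cells went from 59.2, 35.0 and 31.4 CPM to 80.4, 71.5 and 84.8 CPM (0.78, SE 0.25, edgeR adjusted p = 0.0184). Neither line had an overlap between groups, though normoxic replicate 1 of HCT116 cells was well above the other 2. In A549 cells the change was 0.70 (SE 0.20, edgeR adjusted p = 0.0168) from 21.4, 23.2 and 29.6 CPM to 46.9, 46.9 and 26.9 CPM, with hypoxic replicate 3 inside the normoxic range. The call was lost in A549 cells without hypoxic or normoxic replicate 1 or 2, in HCT116 cells without normoxic replicate 3 and in PC3 cells without hypoxic replicate 2 (adjusted p = 0.0517 to 0.0596 over these fits). T47D cells did not pass, at 22.1, 29.6 and 23.4 CPM in normoxia and 40.5, 33.9 and 21.2 CPM in hypoxia (0.26, 95% interval −0.26 to 0.78). The T47D value was 0.06 without hypoxic replicate 1, 0.49 without hypoxic replicate 3 (edgeR adjusted p = 0.0811) and 0.41 without normoxic replicate 2, none of them past the threshold. In HCT116 cells it was 1.198 (edgeR adjusted p = 0.00110) without normoxic replicate 1. NOTCH4 had no count in any of the 24 libraries, which allows up to 0.132 CPM in the hypoxic HCT116 library with the highest floor of 3 counts; such floors cover counting error only.

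The balance of the receptors was compared on CPM per kb of exon, which puts genes of unequal length on 1 scale. In normoxia NOTCH3 held 61.3% ± 1.31 (SD, n = 3) of the summed receptor level in T47D cells and 53.0% ± 9.43 in A549 cells, against 31.9% ± 2.88 in PC3 and 22.5% ± 8.96 in HCT116 cells. NOTCH2 led in PC3 cells with 49.6% ± 2.595, and NOTCH1 reached its highest share in HCT116 cells with 38.2% ± 4.69. The NOTCH3 share in PC3 cells was 34.4%, 28.8% and 32.5% in normoxia and 48.3%, 41.8% and 44.2% in hypoxia, and that in T47D cells 59.8%, 62.3% and 61.7% in normoxia and 65.3%, 66.2% and 69.9% in hypoxia. The groups did not overlap in these 2 lines, including hypoxic replicate 3 of T47D cells. The shares overlapped in A549 (45.9% ± 8.67 in hypoxia) and HCT116 cells (29.3% ± 11.5), where the spread between libraries exceeded the difference of the means. These shares are descriptions of counts without the correction for GC content and length given below, and were not tested. With that correction the log2 fold changes of NOTCH3 and NOTCH2 were 0.38 and 0.29 in T47D cells. In PC3 cells they were 0.69 and 0.06.

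**Figure D2:**
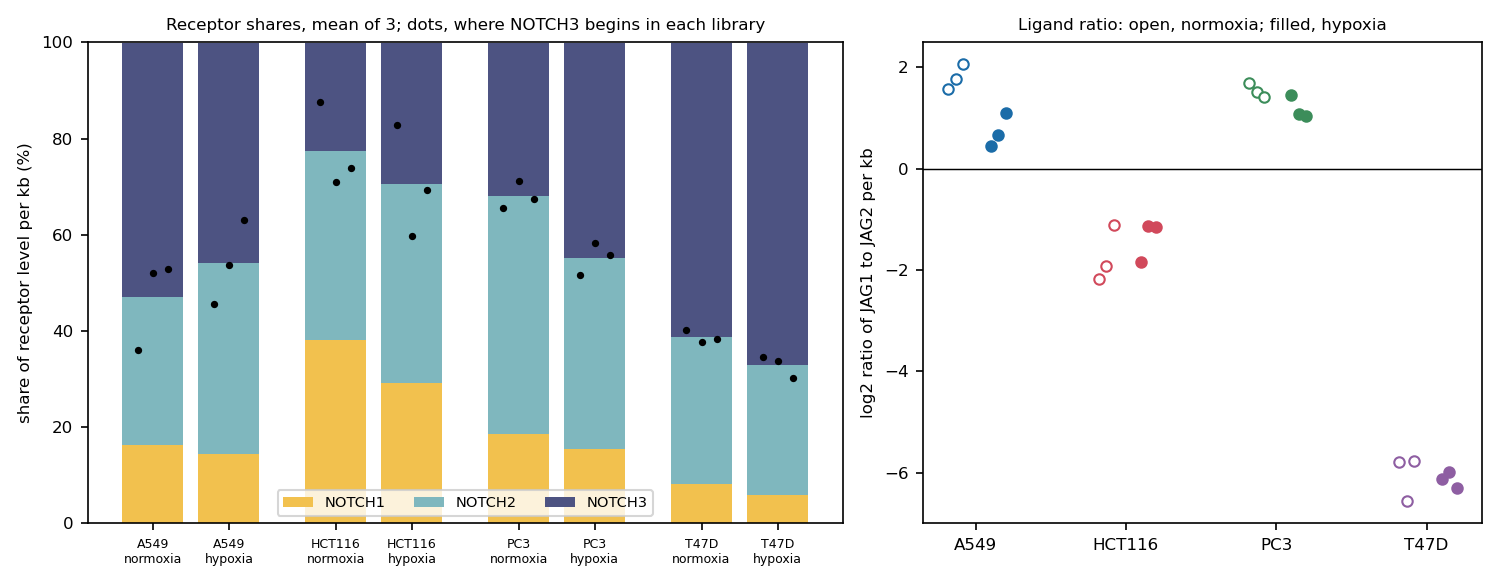
Left, share of each receptor in the summed receptor level per kb of exon (%), as stacked means of 3 libraries per group, with dots where NOTCH3 begins in each library; right, log2 ratio of JAG1 to JAG2 per kb in every library, open in normoxia and filled in hypoxia. NOTCH3 takes a larger part in hypoxic PC3 and T47D cells, and the log2 ligand ratio is above 0 in every A549 and PC3 library and below 0 in every HCT116 and T47D library.

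JAG1, a ligand of the Jagged class, was the only member that fell past the thresholds in any line. In A549 cells JAG1 was at 175, 180 and 228 CPM in normoxia and 129, 152 and 140 CPM in hypoxia (−0.48, SE 0.12, edgeR adjusted p = 0.0115). HCT116 cells went the other way, from 40.1, 32.6 and 43.4 CPM to 72.1, 90.0 and 103 CPM (1.08, SE 0.20, edgeR adjusted p = 0.000832). The groups did not overlap in either line, and both calls held when any 1 library was left out. PC3 cells had the highest JAG1 level and no detectable change, at 294, 289 and 246 CPM in normoxia and 322, 295 and 282 CPM in hypoxia (0.07, 95% interval −0.15 to 0.29). T47D cells had almost none, with 46, 56 and 62 counts (1.07, 0.813 and 0.988 CPM) in normoxia and 180, 172 and 86 counts (2.92, 2.68 and 1.57 CPM) in hypoxia. Their change of 1.24 (SE 0.37) passed (edgeR adjusted p = 0.0456), and the call was lost without any 1 of hypoxic replicates 1 and 2 or of the 3 normoxic libraries (adjusted p = 0.0569 to 0.179). The response of JAG1 differed between the lines more clearly than that of any other member (interaction adjusted p = 9.69e-05, edgeR F test of the 3 line by oxygen terms over all 24 libraries).

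JAG2, the second Jagged ligand, was upregulated in all 4 lines. The largest change was in T47D cells, from 40.9, 53.2 and 36.97 CPM to 140, 117 and 85.8 CPM (1.30, SE 0.23, edgeR adjusted p = 0.00502). A549 cells had 40.1, 36.3 and 37.53 CPM in normoxia and 64.8, 65.8 and 45.1 CPM in hypoxia (0.62, SE 0.14, edgeR adjusted p = 0.00604). In HCT116 cells 125, 85.3 and 64.3 CPM became 178, 137 and 158 CPM (0.65, SE 0.25, edgeR adjusted p = 0.0465). The HCT116 call was lost without hypoxic replicate 1 or 3 or normoxic replicate 2 or 3, and that of T47D cells without normoxic replicate 1 (1.27, adjusted p = 0.0720). PC3 cells had 62.6, 69.7 and 63.8 CPM in normoxia and 80.4, 96.1 and 94.2 CPM in hypoxia (0.41, SE 0.096, edgeR adjusted p = 0.0117), a call lost without hypoxic replicate 2 or normoxic replicate 1. Without normoxic replicate 1 the HCT116 change was 1.02 (edgeR adjusted p = 0.00450). No groups overlapped. The interaction did not pass (adjusted p = 0.0863), and it passed with the replicate number as a block (0.0406).

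On CPM per kb, the 2 ligands were in a different order in different lines. The log2 ratio of JAG1 to JAG2 was 1.58, 1.77 and 2.06 in normoxic and 0.45, 0.66 and 1.10 in hypoxic A549 cells, so that JAG1 led in both states and by less in every hypoxic library. JAG1 also led in PC3 cells (1.54 ± 0.14 in normoxia and 1.19 ± 0.23 in hypoxia, SD, n = 3). JAG2 led in HCT116 cells (−1.74 ± 0.56 and −1.38 ± 0.40) and by far in T47D cells (−6.05 ± 0.46 and −6.14 ± 0.16), and the 2 states overlapped in these 3 lines. The ratios were not tested.

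HES1 and HEY1 are the target genes among the members. HES1 was upregulated only in HCT116 cells, from 7.70, 7.55 and 13.4 CPM to 13.5, 47.46 and 33.7 CPM (1.61, SE 0.36, edgeR adjusted p = 0.00261), and hypoxic replicate 1 lay just above the highest normoxic library. In PC3 cells, where HES1 was highest, 48.2, 39.0 and 43.0 CPM in normoxia compared with 50.6, 42.2 and 44.5 CPM in hypoxia (0.02, 95% interval −0.23 to 0.28). A549 cells had 11.2, 6.02 and 8.16 CPM in normoxia and 8.76, 8.06 and 7.10 CPM in hypoxia (−0.09, 95% interval −0.54 to 0.37). The states overlapped in these 2 lines, while in T47D cells 13, 21.8 and 21.4 CPM in normoxia lay below 23.9, 24.8 and 51.5 CPM in hypoxia without passing the test (0.76, SE 0.30, edgeR adjusted p = 0.111). Without hypoxic replicate 3 the T47D change was 0.30 (edgeR adjusted p = 0.338). The difference between lines passed for HES1 (interaction adjusted p = 0.0281). It was lost without replicate 2 or replicate 3 of all groups (adjusted p = 0.351 and 0.0626).

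HEY1 was low in all lines except PC3, where 6.30, 5.49 and 7.11 CPM in normoxia became 13.5, 9.94 and 11.8 CPM in hypoxia (0.85, SE 0.17, edgeR adjusted p = 0.00642). In A549 cells 71, 43 and 69 counts (1.40, 0.770 and 1.25 CPM) compared with 142, 104 and 99 counts (2.44, 2.08 and 1.99 CPM) in hypoxia (0.93, SE 0.30, edgeR adjusted p = 0.0300). T47D cells had only 8, 8 and 38 counts in normoxia (0.186, 0.116 and 0.605 CPM) and 146, 71 and 52 counts in hypoxia (2.37, 1.11 and 0.951 CPM), and HEY1 had the largest log2 fold change of any member there (2.20, SE 0.62, edgeR adjusted p = 0.0361). The groups did not overlap in these 3 lines. The T47D call was lost without hypoxic replicate 1 or normoxic replicate 1 or 2, and the A549 call without hypoxic replicate 1 or 2 or normoxic replicate 2. HCT116 cells went from 31, 36 and 53 counts (0.558, 0.804 and 0.846 CPM) to 33, 18 and 6 counts (0.570, 0.345 and 0.265 CPM), a change of −0.97 with a 95% interval from −2.05 to 0.11. The response of HEY1 differed between lines (interaction adjusted p = 0.0113), and the difference did not pass without replicate 1 or replicate 2 of all groups (adjusted p = 0.0904 and 0.247). In these fits HES1 and HEY1 passed in no line together.

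**Figure D3:**
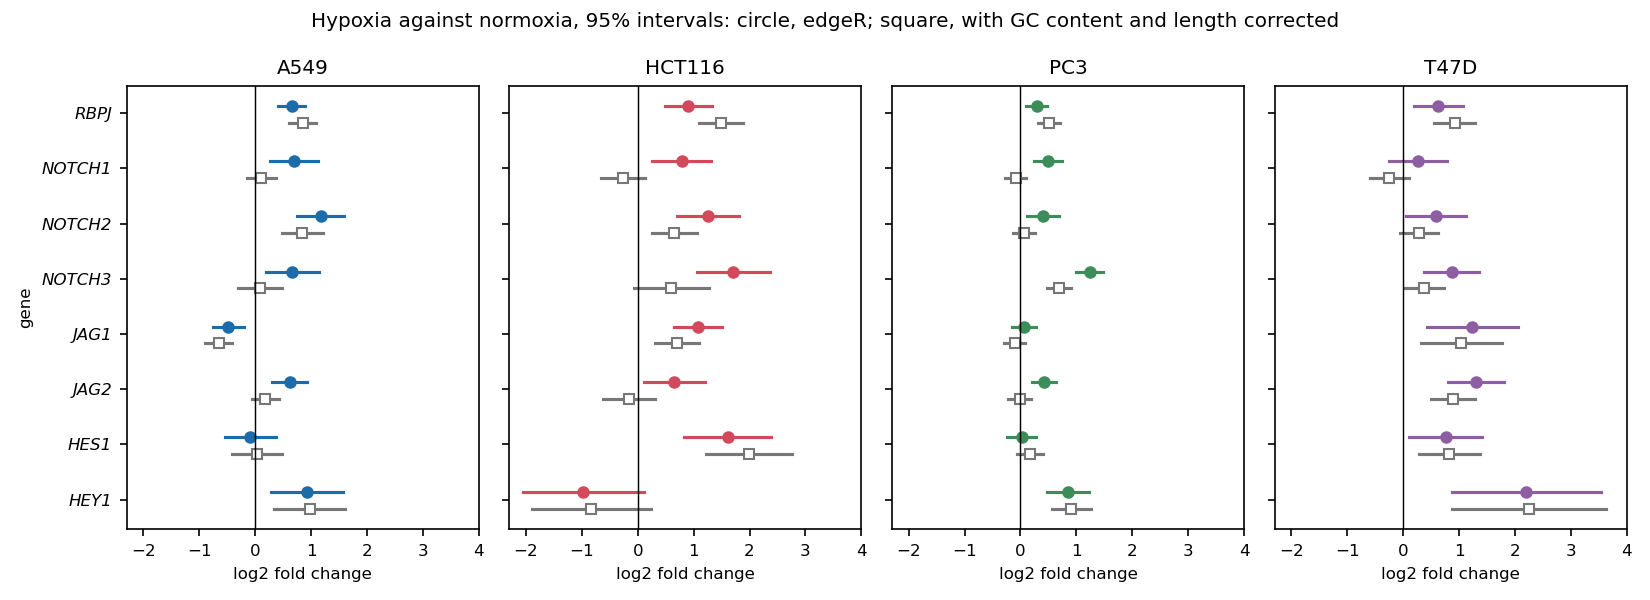
Log2 fold change of hypoxia over normoxia for the 8 genes in each line, with 95% intervals; circles are the edgeR fit of the counts and squares the same fit with trends over GC content and transcript length taken out. In every line, squares lie to the right of circles for RBPJ, HES1 and HEY1 and to the left for NOTCH1, NOTCH2, NOTCH3, JAG1 and JAG2.

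Counted together, 6 of the 8 genes were upregulated and 1 was downregulated in A549 cells, where 17.6% of the 13897 genes tested were upregulated and 17.8% downregulated. In HCT116 cells 7 were upregulated, against 23.3% of all genes upregulated and 27% downregulated. PC3 cells had 6 upregulated, against 16.6% up and 15.7% down, and T47D cells 4, against 6.55% up and 6.69% down. None was downregulated in these 3 lines by edgeR, also none at an unadjusted p under 0.05 and none by DESeq2. Over the 8 genes the log2 fold change had a median of 0.66 in A549, 0.99 in HCT116, 0.41 in PC3 and 0.82 in T47D cells, against −0.03 to −0.01 over all genes. With 1 library left out, the number upregulated went down to 3 in A549 cells (without hypoxic replicate 1 or 2 or normoxic replicate 2) and to 2 in PC3 cells (without hypoxic replicate 2). In T47D cells it was 0 without normoxic replicate 1 and 6 without hypoxic replicate 3. The shares of all genes in these fits are not given here, so the shifts cannot be called particular to the members.

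Transcript composition moved with these changes. In every line, log2 fold changes over all genes rose with the GC content of the longest transcript, with Pearson r across genes of 0.25 in A549, 0.34 in HCT116, 0.32 in PC3 and 0.26 in T47D cells, and more weakly with its length (r of 0.14, 0.22, 0.17 and 0.10). Genes are not independent replicates, and these r are descriptions. NOTCH1 (63.3% GC), NOTCH3 (63.1%) and JAG2 (64.1%) are among the GC-rich transcripts, and RBPJ is at 36.8%, with NOTCH2, JAG1, HES1 and HEY1 between 45.05% and 49.97%. Of genes with at least 60% GC, 28.2% were upregulated in A549, 39.6% in HCT116, 31.7% in PC3 and 11.8% in T47D cells. Taking each library's trend over GC content and length out through offsets, an alternative chosen after seeing the data, moved the members in opposite directions.

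With the correction, RBPJ was upregulated by 0.85 in A549 (edgeR adjusted p = 0.000240), 1.49 in HCT116 (9.27e-05), 0.51 in PC3 (0.00356) and 0.92 in T47D cells (0.00895). The change of RBPJ then differed between the lines (interaction adjusted p = 0.00760, against 0.111 without the correction), as did those of JAG2 (0.0129) and NOTCH2 (0.0478). NOTCH1 ranged from −0.26 to 0.11 and passed in no line. NOTCH3 stayed upregulated in PC3 cells (0.69, edgeR adjusted p = 0.00177) and was 0.09, 0.60 and 0.38 in A549, HCT116 and T47D cells without passing. JAG2 stayed upregulated in T47D cells (0.90, edgeR adjusted p = 0.0125) and lay between −0.16 and 0.18 in the other 3 lines. NOTCH2 held in A549 (0.84) and HCT116 cells (0.65) and did not pass in PC3 cells (0.06, edgeR adjusted p = 0.628), and JAG1 kept its fall in A549 (−0.65) and its rise in HCT116 cells (0.70). HES1 in HCT116 cells (1.997) and HEY1 in A549, PC3 and T47D cells (0.98, 0.91 and 2.25) also held. With the replicate number as a block beside the correction, JAG1 (1.03, adjusted p = 0.0354) and HES1 (0.83, adjusted p = 0.0112) also passed in T47D cells, where HEY1 passed too, and NOTCH3 passed in HCT116 cells (0.58, adjusted p = 0.00502). The correction left 3 members upregulated and 1 downregulated in A549 cells (15.4% and 16.7% of all genes), 4 upregulated in HCT116 (20.5%), 3 in PC3 (12.5%) and 3 in T47D cells (7.05%). JAG1 in A549 cells remained the one downregulated call, with 20.9%, 12.8% and 5.96% of all genes downregulated in HCT116, PC3 and T47D cells. Whether the trend itself belongs to the cells or to the libraries was not tested.

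**Figure D4:**
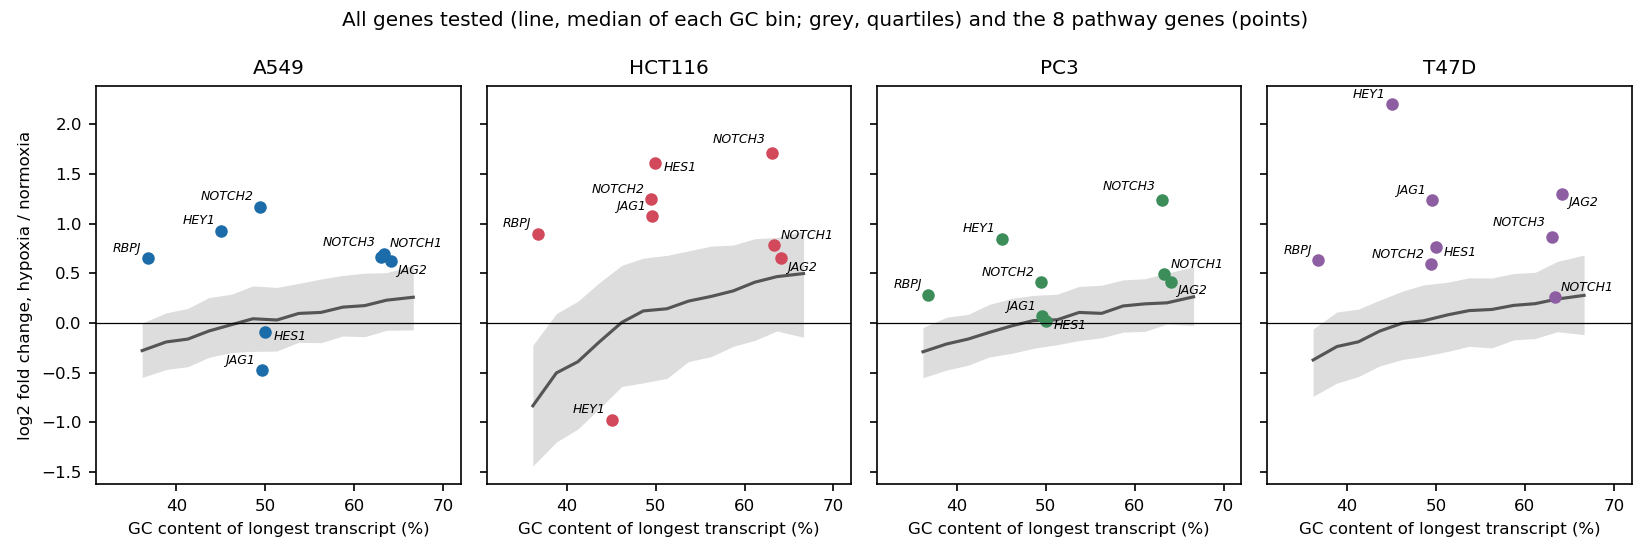
Log2 fold change of hypoxia over normoxia against the GC content of the longest transcript (%), by line; the dark line is the median of all genes tested in each GC bin, the grey band their quartiles, and points the 8 genes. The median rises with GC content in every line, RBPJ lies above the band at low GC content in all 4, and NOTCH1 and JAG2 lie in or near the band at high GC content in HCT116 and PC3 cells.

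Before hypoxia, the lines already differed in every member (edgeR F test over the 12 normoxic libraries), as did 93.5% of all genes tested, and without replicate 1 NOTCH1 alone no longer passed (adjusted p = 0.471). RBPJ was at 99.0 CPM in HCT116 and 94.2 in PC3 cells, which did not differ beyond their spread, and at 53.8 in T47D and 48.0 in A549 cells, which did not either, with a difference of 0.81 (SE 0.16, edgeR adjusted p = 0.000257) between the neighbors PC3 and T47D. NOTCH3 fell in distinct steps from T47D (142 CPM) to A549 (60.7), PC3 (36.2) and HCT116 cells (17.1), each neighbor pair past the thresholds. JAG1 had the widest range, at 277 CPM in PC3, 194 in A549, 38.7 in HCT116 and 0.956 in T47D cells, again with every step past the thresholds.

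JAG2 ordered the lines as HCT116 (91.5 CPM), PC3 (65.4), T47D (43.7) and A549 (38.0), and the last pair did not differ beyond its spread. NOTCH2 was highest in T47D (126 CPM) and PC3 cells (102) and lower in A549 (63.0) and HCT116 cells (57.7), with a step past the thresholds only between PC3 and A549. NOTCH1 was at 41.9 CPM in HCT116 cells, above PC3 (28.1), T47D (25.04) and A549 cells (24.7), which did not differ from each other. Among the targets, HES1 went from PC3 (43.4 CPM) to T47D (18.7), HCT116 (9.54) and A549 (8.45), and HEY1 from PC3 (6.30) to A549 (1.14), HCT116 (0.736) and T47D cells (0.302). The last pair of HES1 and the middle pair of HEY1 did not pass.

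Between pairs of lines, all 8 members differed between HCT116 and T47D cells, against 68.5% of genes tested. In A549 against PC3 cells, the pair that shared a medium, 7 members differed against 60% of genes. The same number differed between HCT116 and PC3 cells (65.6% of genes), 6 between PC3 and T47D (67.8%), and 5 each between A549 and HCT116 (64.9%) and between A549 and T47D cells (66.6%). Of the 8 members, 3 had a response to hypoxia that differed between lines (JAG1, HES1 and HEY1), against 18.3% of the 16089 genes tested.

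The wider pathway was read from a list of 71 genes that includes the 8 members. Without them, 22 of 57 genes tested were upregulated and 3 downregulated in A549 cells, 25 and 1 of 54 in HCT116, 22 and 1 of 55 in PC3, and 3 upregulated of 55 in T47D cells. All genes tested gave 17.6%, 23.3%, 16.6% and 6.55% upregulated in the same order, so that the T47D count lay near the share of all genes. Their log2 fold changes had medians of 0.22, 0.49, 0.24 and 0.33. With the correction for GC content and length, upregulated genes of the full list numbered 15 of 65, 17 of 62, 14 of 63 and 4 of 63 tested. Without it they numbered 28, 32, 28 and 7. All genes tested gave 15.4%, 20.5%, 12.5% and 7.05% upregulated with the correction, so that the T47D count again lay near that share. In T47D cells, the full list had 0 genes upregulated without normoxic replicate 1 and 19 without hypoxic replicate 3.

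Of the coactivators of RBPJ, 4 of 8 genes tested were upregulated in A549, 5 of 8 in HCT116 and 5 of 7 in PC3 cells, against 17.6%, 23.3% and 16.6% of all genes. The Mastermind genes MAML2 and MAML3 and the histone acetyltransferase genes EP300 and CREBBP were upregulated in A549, HCT116 and PC3 cells. The mean level of EP300 was 49.7 CPM in normoxia and 81.3 in hypoxia in A549 cells (0.70, SE 0.19, edgeR adjusted p = 0.0134), and that of CREBBP 46.8 and 89.5 CPM in PC3 cells (0.89, SE 0.12, edgeR adjusted p = 0.00172). MAML2 rose by 0.74 in A549, 1.49 in HCT116 and 0.58 in PC3 cells, and MAML3 most in HCT116 cells, from a mean of 0.850 to 4.04 CPM (2.12, SE 0.40, edgeR adjusted p = 0.000862). None of the 8 coactivator genes passed in T47D cells by edgeR or DESeq2, and 1 (KAT2A) had an unadjusted p under 0.05. With the correction for GC content and length, MAML2 held in the same 3 lines, MAML3 only in HCT116 (1.54), EP300 only in A549 (0.40) and PC3 (0.38) and CREBBP only in PC3 cells (0.43). SNW1, a splicing factor that also binds the complex, was lower in A549 (−0.37) and PC3 cells (−0.28), and the acetyltransferase gene KAT2A in A549 cells (−0.33, SE 0.098, edgeR adjusted p = 0.0212). With the correction that of KAT2A held, while SNW1 passed in neither of these lines and was called upregulated in HCT116 cells.

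Corepressors, which hold RBPJ targets silent, were upregulated in 4 of 15 genes tested in A549, 8 of 14 in HCT116, 7 of 15 in PC3 and 1 of 14 in T47D cells, against 17.6%, 23.3%, 16.6% and 6.55% of all genes. The T47D count was about the share of all genes. TLE3, of the Groucho family, was upregulated in all 4 lines, from 13.3 to 34.8 CPM in A549 cells (1.38, SE 0.14, edgeR adjusted p = 4.5e-05) and by 1.41, 0.50 and 0.74 in HCT116, PC3 and T47D cells. With the correction TLE3 held in A549 and HCT116 cells (0.99 and 0.66) only. TLE1 rose by 1.43 in HCT116 and 0.46 in A549 cells, and TLE2 by 0.64 in HCT116 and 0.84 in PC3 cells. The calls of TLE1 in A549 and TLE2 in HCT116 cells were lost with the correction. TLE3 was then the only corepressor called upregulated in A549 cells, and KDM5A and TLE2 the only ones in PC3 cells. All genes gave 15.4% and 12.5% upregulated in these lines with the correction. NCOR1 was then called downregulated in A549 and HCT116 cells. No corepressor was called in T47D cells with the correction. With the replicate block beside it, CIR1 and KDM5A were called upregulated there and SPEN downregulated.

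**Figure D5:**
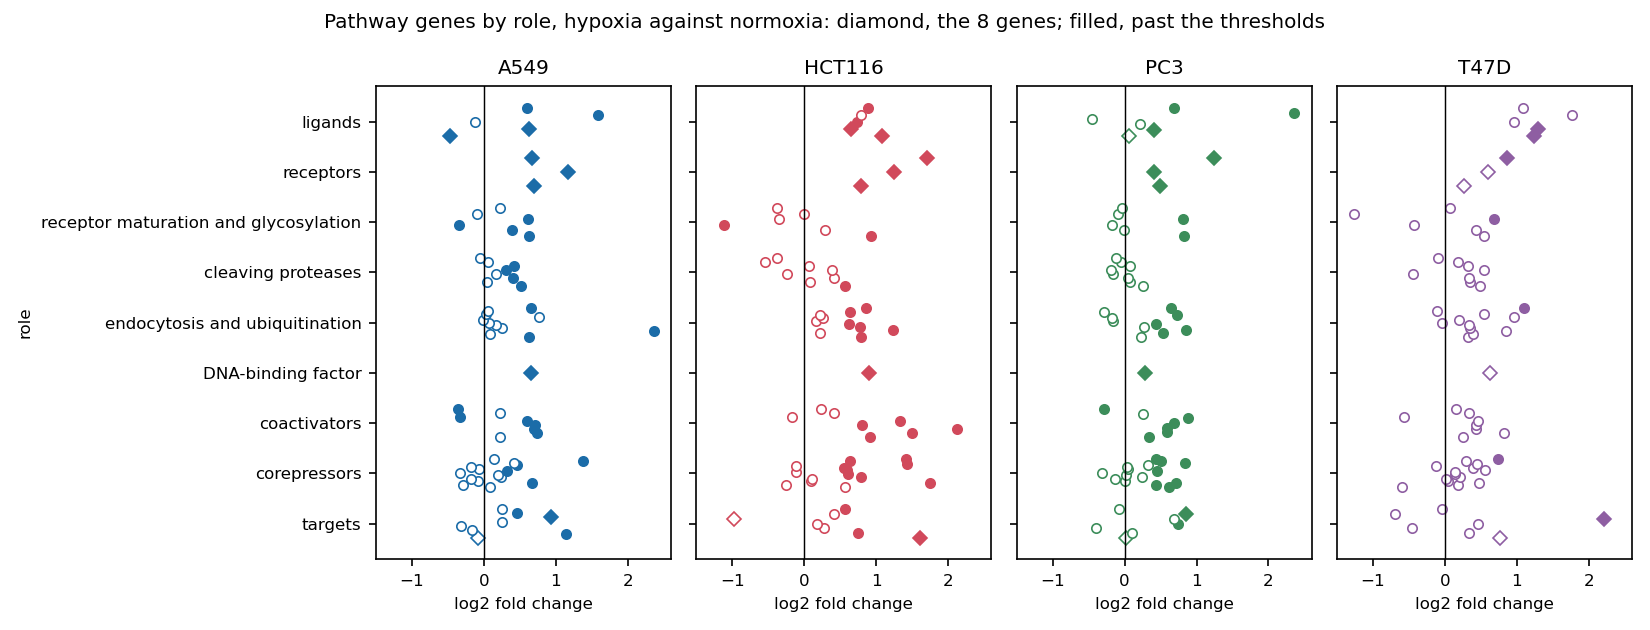
Log2 fold change of hypoxia over normoxia for the tested genes of the 71-gene list, one row per role and one panel per line; diamonds are the 8 members and filled symbols are genes past the thresholds. Filled symbols lie mostly to the right of 0 in A549, HCT116 and PC3 cells, and T47D cells have 7 of them.

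Among regulators of receptor processing and turnover, DTX4, a ubiquitin ligase of the Deltex family, was upregulated in all 4 lines, from 5.48 to 12.4 CPM in T47D cells (1.10, SE 0.26, edgeR adjusted p = 0.0187) and by 0.66, 0.85 and 0.64 in A549, HCT116 and PC3 cells. With the correction it did not pass in HCT116 cells (0.30). NEURL1, which acts on ligand endocytosis, rose by 2.36 in A549 cells from a mean of 0.139 CPM, by 1.23 in HCT116 and by 0.86 in PC3 cells. LFNG, a glycosyltransferase that adjusts which ligands a receptor answers, rose in A549, PC3 and T47D cells (0.61, 0.81 and 0.68). POGLUT1, which adds glucose to the receptors, fell in A549 (−0.34) and HCT116 cells (−1.12). With the correction, NEURL1 held in A549, LFNG in A549 and PC3 and POGLUT1 in HCT116 cells only. Among the protease genes, ADAM10, which makes the first cut, was upregulated in A549 and HCT116 cells. None of the 8 passed in PC3 or T47D cells by edgeR or DESeq2, where ADAM10 and NCSTN, 1 in each line, had an unadjusted p under 0.05.

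Among the other targets, HES2 was upregulated in A549 and HCT116 cells, HEYL in A549, NRARP in HCT116 and HES6 in PC3 cells, and no other listed target passed apart from HES1 and HEY1. NRARP, a feedback inhibitor of the pathway, had a mean of 12.7 CPM in normoxic and 20.5 CPM in hypoxic HCT116 cells (0.56, SE 0.21, edgeR adjusted p = 0.0426). With the correction, the calls of HES2, HEYL, NRARP and HES6 were all lost, and HES6 was called downregulated in A549 cells.

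The genes most like each member were sought by Pearson correlation of log2 CPM, centered on the mean of each line, over the 24 libraries and 11733 genes. For RBPJ these were PLEKHA2 (r = 0.973), TBL1XR1 (0.969) and FEM1C (0.969), and for NOTCH3 they were TP53I11 (0.977), KIAA0319L (0.951) and PALM (0.943). NOTCH1 was closest to ZNF592 (0.963), NOTCH2 to CMTM4 (0.974), JAG2 to PDE4A (0.934), HES1 to SNRPA (0.889) and HEY1 to ELF1 (0.862), and CDKN1A (0.893) and CCDC80 (0.892) were among the 3 genes most like JAG1. Between members, RBPJ followed NOTCH3 most closely (0.843), and HES1 and HEY1 did not vary together (0.012). The libraries share depth, oxygen state and base composition, so these r are descriptions of 24 points.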

How the data were processed

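The authors made polyadenylated, strand-specific libraries, trimmed reads with Trim Galore 0.3.3, aligned them to GRCh37 with HISAT2 2.05, removed fragments without a unique position with Picard 2.0.1 and counted the rest per gene with HTSeq 0.5.4p3 in its intersection-strict mode (tools and versions per the submitters' processing notes and the paper). The deposited values are these raw counts per gene symbol, without normalization.

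Computed here, edgeR 4.0.16 in R 4.3.3 fitted each line separately to the deposited counts (filterByExpr, TMM scaling, quasi-likelihood test), with Benjamini-Hochberg adjustment over all genes tested. A gene was called where its adjusted p lay under 0.05 and its fold change over 1.2. The interaction of line and oxygen used all 24 libraries, and normoxic levels the 12 normoxic ones. Levels are CPM after TMM scaling over all libraries, and levels between genes are per kb of the exon union in GENCODE 44. A floor of 3 counts was used for genes at 0.

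The members and lists were chosen with earlier results of these data known. All 8 members are named, with the other list genes called in the same direction in all 4 lines or in opposite directions, and the 3 largest called changes per line with a mean log2 CPM over 1; further list genes were named after their values were seen, and a few genes are not reported here. Genes most like a member are the 3 with the highest Pearson r.

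Replicate numbers come from the labels. Same-numbered libraries deviated together in every pair (r over 0.1) only in T47D cells, with r from 0.154 to 0.325 there and from 0.0707 to 0.288 elsewhere, so that blocked values stand beside T47D results whose call they change. Alternatives were DESeq2 1.42.0, other scalings, filters and thresholds, one fit of all libraries, the replicate block and libraries left out. The correction for GC content and transcript length, chosen after seeing the data, regressed the deviation of every library from its line's mean on splines (5 degrees of freedom each), using genes whose mean count reached 50, for the 21656 symbols (93.72%) with a transcript. Simulated counts were used to test the edgeR line fit, with and without the replicate block, and the DESeq2 line fit in A549 and T47D cells. The interaction fit, with and without the block, and the normoxic fit were tested too. The correction was tested in A549 cells only, without the block and with a trend over length alone. The other alternatives, the corrected interaction among them, were not tested in this way.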

Additional observations from a re-analysis of the deposited data

Results flagged for a closer look

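For 3 genes the change under hypoxia differed between the lines by the edgeR interaction test over all 24 libraries. JAG1 had an interaction adjusted p of 9.688e-05, with log2 fold changes of −0.48 in A549, 1.08 in HCT116, 0.07 in PC3 and 1.24 in T47D cells. HEY1 had an interaction adjusted p of 0.01128, with changes of 0.93, −0.97, 0.85 and 2.20 in the same order, and rests on at most 53 counts per library in HCT116 cells. HES1 had an interaction adjusted p of 0.02808, with changes of −0.09, 1.61, 0.02 and 0.76. No library of these groups could be tested as an outlier, since each group holds 3.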

How the results depend on the processing

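Of the single-gene results under all alternatives, 898 kept direction and call, 140 lost the call, 21 gained it and 19 changed sign, and RLE size factors changed no call or sign. Receptor shares and ligand ratios were recomputed with other gene lengths and with 1 library left out. Of these values 123 stayed within the SD of the main mean and 37 moved further, and no ratio changed sign. With the correction for GC content and transcript length, upregulated members numbered 3, 4 and 3 in A549, HCT116 and PC3 cells, upregulated list genes 15, 17, 14 and 4 and downregulated ones 4, 5 and 1 in HCT116, PC3 and T47D cells, and the interaction passed for 6 members. The sign changed for HES1 in A549 (0.03658), NOTCH1 in HCT116 (−0.2619), PC3 (−0.08861) and T47D (−0.2448), JAG2 in HCT116 (−0.1633) and PC3 (−0.01069) and JAG1 in PC3 cells (−0.102). With correction and replicate block together, members numbered 3 in A549 and 3 in PC3 cells, list genes 17, 19 and 16 up in A549, HCT116 and PC3 cells and 7, 6 and 4 down in HCT116, PC3 and T47D cells, interaction calls 7, and the same 7 values were 0.06047, −0.2492, −0.08735, −0.2555, −0.148, −0.01016 and −0.1038.

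With the replicate block alone, downregulated list genes numbered 2, 2 and 1 in HCT116, PC3 and T47D cells and interaction calls 5. DESeq2 gave 2 downregulated list genes in PC3 cells. Scaling to total counts, which moved the median of all genes to −0.13 in A549 and −0.12 in T47D cells, gave 7 and 3 downregulated list genes in A549 and PC3 cells, 4 upregulated in T47D cells and −0.01476 for HES1 in PC3 cells. An adjusted p under 0.01 left 3, 2 and 1 members upregulated in A549, PC3 and T47D cells and 0 downregulated in A549, 11, 16, 14 and 1 list genes upregulated, 0 downregulated in A549 and PC3 cells, and 1 interaction call. A fold change over 1.5 left 0 members downregulated in A549, 2 upregulated in PC3 cells, 16 list genes upregulated in PC3 and 0 downregulated in A549 and PC3 cells. One fit of all libraries left 0 members downregulated in A549 and 1 upregulated in PC3 cells, 13, 11 and 20 list genes upregulated in A549, PC3 and T47D cells and 0 downregulated in A549 and PC3 cells. The cause of these shifts was not tested.

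With 1 library left out, upregulated members ranged from 3 to 6 in A549, 5 to 7 in HCT116, 2 to 6 in PC3 and 0 to 6 in T47D cells, and upregulated list genes from 11 to 28, 21 to 34, 16 to 28 and 0 to 19. Downregulated list genes ranged from 1 to 4 in A549, 0 to 2 in PC3 and 0 to 2 in T47D cells, HES1 from −0.281 to 0.1646 in A549 and from −0.06474 to 0.104 in PC3 cells, and interaction calls, with 1 replicate number left out, from 1 to 2. Depth limits HEY1 outside PC3 cells and JAG1 in T47D cells, and RBPJ in PC3 cells lies near the fold threshold. The counts of calls in this section, those of the interaction included, stand without the share of all genes under each alternative. They describe how calls moved and do not set the members or the list apart from other genes.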
